A study of Homo sapiens with 4 samples.

Results

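The WNT ligands and their receptors are 34 genes: the 19 WNT ligands, the 10 Frizzled receptors, the co-receptors LRP5 and LRP6, and the alternative receptors ROR1, ROR2 and RYK. They were taken as a list of gene names from GENCODE on GRCh37, and all 34 were found among 20163 protein-coding genes on chromosomes 1 to 22, X and Y. A gene was scored as marked in a cell line when a peak of H3K27 acetylation overlapped the 1 kb either side of any of its transcript starts. A distal peak was a peak within 50 kb of the gene body that touched no such window of any protein-coding gene.

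The study searched cancer genomes for mutations in regulatory DNA, and it profiled H3K27ac by ChIP-seq in cell lines for which no such data were at hand. The 4 libraries analysed here come from the colon cancer line COLO-205, grown in RPMI with FBS, the prostate cancer line DU-145, in Eagle minimal essential medium with FBS, and the ovarian cancer lines OVCAR-3, in RPMI 1640 with FBS, and SKOV-3, in McCoy's 5a with FBS. No line was treated, each has 1 library, and medium and line cannot be told apart. With 1 library per line no difference between lines has a replicate check, so what follows is a description, and all intervals cover counting error only.

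H3K27ac is an acetylated histone residue found at active promoters and enhancers. WNT proteins are secreted lipid-modified glycoproteins that bind Frizzled receptors on nearby cells. With LRP5 or LRP6 as co-receptor, binding stabilises β-catenin, which then works with TCF/LEF factors in the nucleus. With ROR or RYK, WNTs instead steer cell polarity and movement. The pathway maintains the stem cells of the colon crypt, and its overactivity is a hallmark of colon cancer.

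The 3 longer lists held 75468 to 85576 peaks, and that of SKOV-3 held 14001. Runs of 4 values below follow the order colon (COLO-205), prostate (DU-145) and then the ovarian lines, OVCAR-3 before SKOV-3. The tag pileup at each summit, solved from the fold enrichment and p-value of the peak, had a median of 24 to 30 tags, and estimated library sizes ran from 22400000 to 36000000 tags. The SKOV-3 list was thus the shortest, with the fewest tags, and an unmarked promoter in SKOV-3 says less than one in the other lines. Markers of the labelled tissues were marked in part. In COLO-205, 4 of 7 colon genes were marked (CDX2, VIL1, LGALS4 and GPA33), and in OVCAR-3 all 6 ovarian genes. In DU-145 the prostate gene TMPRSS2 was marked, as in COLO-205 and OVCAR-3, while KLK3, KLK2 and HOXB13 were not. In SKOV-3, PAX8 and SOX17 of 6 ovarian genes were marked, while in COLO-205 4 of these 6 were. All 4 epithelial genes (EPCAM, CDH1, KRT8 and KRT18) were marked in the other lines, and KRT8 and KRT18 alone in SKOV-3. Of 3 mesenchymal genes, ZEB1 was marked in every line, VIM in DU-145 and SKOV-3, and CDH2 in none. Of blood cell markers, PTPRC and CD3E were unmarked in every line and CD14 was marked in DU-145 alone.

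Of the members, 6 were marked in exactly 1 line, and the DNA just upstream is shown for 5 of these promoters because they set the lines apart. Each stretch is 150 bases from GRCh37, on the gene's own strand, and ends at the transcript start nearest to the peak summit or, for WNT5A, at the first base clear of an exon. The WNT5A stretch lies inside the strongest peak and that of WNT10B partly inside, and those of FZD9, WNT1 and WNT5B lie beside it. FZD9 and WNT5B each had 2 promoter peaks, and the weaker peak of FZD9 covers its start and the end of the stretch. Capitals mark CpG dinucleotides.
WNT5A (chr3:55521427-55521576, minus strand, marked in OVCAR-3): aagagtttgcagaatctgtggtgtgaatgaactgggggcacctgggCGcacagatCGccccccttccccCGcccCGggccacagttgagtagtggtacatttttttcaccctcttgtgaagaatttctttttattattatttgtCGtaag
FZD9 (chr7:72847958-72848107, plus strand, marked in DU-145): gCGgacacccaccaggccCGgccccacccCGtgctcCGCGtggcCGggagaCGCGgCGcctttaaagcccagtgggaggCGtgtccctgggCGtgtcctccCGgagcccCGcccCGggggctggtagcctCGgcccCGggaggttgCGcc
WNT10B (chr12:49365519-49365668, minus strand, marked in OVCAR-3): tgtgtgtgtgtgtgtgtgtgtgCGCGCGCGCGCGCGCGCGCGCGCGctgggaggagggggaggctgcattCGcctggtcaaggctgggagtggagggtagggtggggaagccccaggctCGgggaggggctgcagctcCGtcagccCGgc
WNT1 (chr12:49371955-49372104, plus strand, marked in COLO-205): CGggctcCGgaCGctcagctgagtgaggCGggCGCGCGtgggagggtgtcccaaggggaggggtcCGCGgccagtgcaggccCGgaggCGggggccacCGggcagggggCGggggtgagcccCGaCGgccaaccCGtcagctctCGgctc
WNT5B (chr12:1639835-1639984, plus strand, marked in DU-145): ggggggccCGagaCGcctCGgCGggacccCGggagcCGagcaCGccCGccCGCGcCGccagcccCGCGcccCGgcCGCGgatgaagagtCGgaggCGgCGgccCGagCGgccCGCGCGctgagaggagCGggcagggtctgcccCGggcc

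These stretches ranged from 5 CpGs in WNT5A to 26 in the WNT5B stretch, which lies at an outer start of that gene. The WNT10B stretch opened with a run of TG repeats followed by a run of CG repeats. Over the 1001 bases centred on the canonical start, the ratio of observed to expected CpGs was above 0.6 in 28 of 34 members, against 66.5% of the 19881 genes with a canonical start. All 15 receptors lay above 0.6, from 0.729 for FZD2 to 1.06 for RYK. The ligands were more mixed, and 6 of 19 fell below: WNT8A at 0.125, WNT8B at 0.126, WNT5B at 0.412, WNT16 at 0.481, WNT10B at 0.502 and WNT10A at 0.556.

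**Figure D1:**
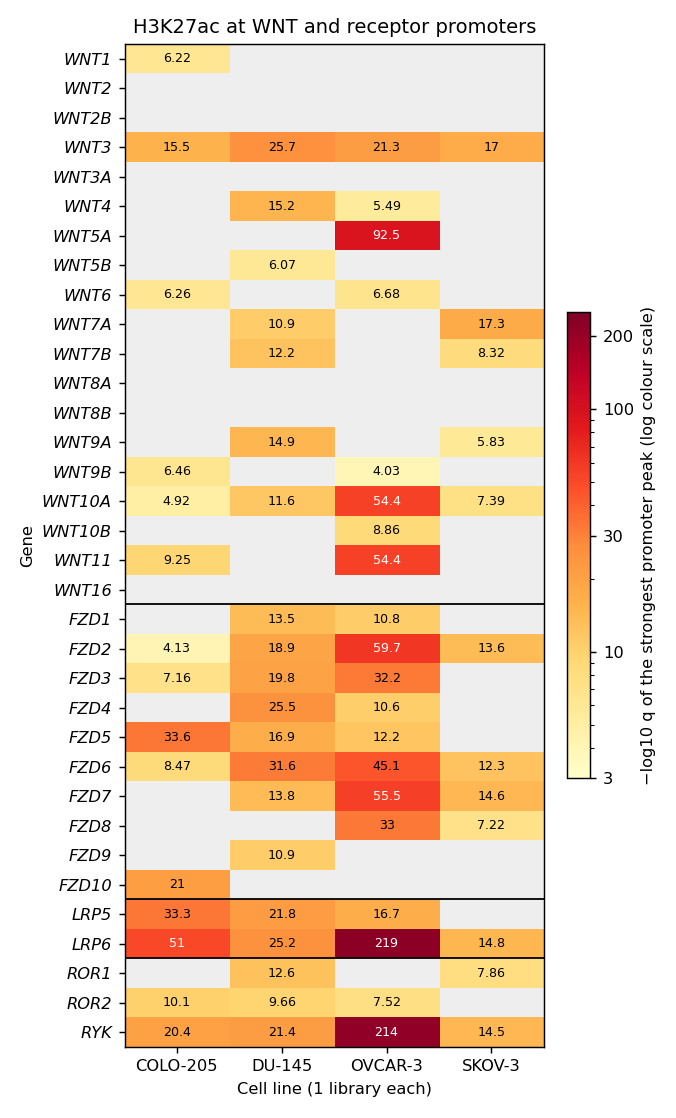
The −log10 q of the strongest promoter peak for each of the 34 members (vertical axis) in the 4 lines (horizontal axis), on a logarithmic colour scale. Grey cells are unmarked, and black lines separate ligands, Frizzled receptors, co-receptors and alternative receptors. LRP6 (219) and RYK (214) in OVCAR-3 are the darkest cells, and 6 ligands are grey throughout.

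In COLO-205, 15 of 34 members were marked (44.1%, 95% Clopper-Pearson interval 27.2 to 62.1), where 51.1% of all protein-coding genes were. In DU-145 there were 20 (58.8%, 40.7 to 75.4) against 59.8% of all genes. In OVCAR-3 there were also 20, against 60.5%. SKOV-3 had 12 (35.3%, 19.7 to 53.5) against 31.6%. In every line the interval of the members' share contained the share of all genes. At a −log10 q of at least 10 the share lay on the other side of that of all genes in DU-145, at 52.9% against 51.1%, and in SKOV-3, at 20.6% against 22.2%. The counts depended on the length of the lists. With the strongest 14001 peaks of each line, 6, 8, 10 and 12 members were marked, against 21.8%, 37.8%, 37.9% and 31.6% of all genes.

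The share differed by role. Of the 19 ligands, 6, 7, 8 and 5 were marked, or 31.6%, 36.8%, 42.1% and 26.3%. Of the 15 receptors and co-receptors, 9, 13, 12 and 7 were marked, or 60.0%, 86.7%, 80.0% and 46.7%. The receptor share lay above that of all genes in each line and the ligand share below it, with intervals that overlap between the roles. The roles also differ in CpG content, so the shares were compared within genes with a ratio above 0.6 at the canonical start. There 5, 5, 6 and 4 of 13 ligands were marked, against 64.7%, 78.4%, 78.9% and 43.9% of all such genes. The 15 receptors were all such genes, so their shares were the 60.0%, 86.7%, 80.0% and 46.7% above. Within these genes the receptor share was below that of all such genes in COLO-205 and above it in the other lines. A gene counted as marked at any of its starts, so the marked start was not always the one with the ratio. WNT3, for example, counted in all 4 lines, though its canonical start was marked in COLO-205 alone.

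**Figure D2:**
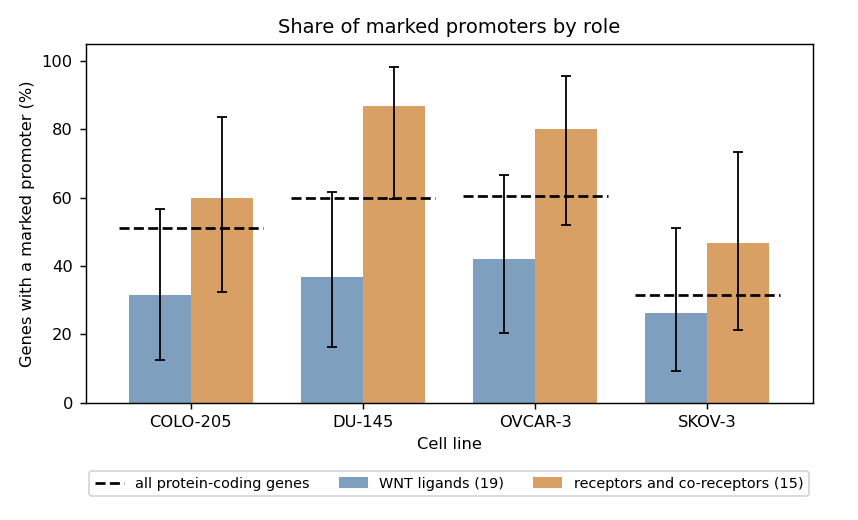
Share of genes with a marked promoter (percent, vertical axis) in each line for the 19 ligands (blue) and the 15 receptors and co-receptors (orange). Bars are shares, error bars 95% Clopper-Pearson intervals for counting error, and dashed lines the share of all protein-coding genes. Ligand bars lie below the dashed line and receptor bars above it in all 4 lines.

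Across lines, 6 members were marked in all 4 (WNT3, WNT10A, FZD2, FZD6, LRP6 and RYK), which is 17.6% against 25.2% of all genes. A further 5 were marked in exactly 3 lines and 11 in exactly 2, against 18.0% and 16.5% of all genes. Without SKOV-3, 10 members were marked in every line, against 38.1% of all genes. The 6 marked in 1 line stand against 15.4% of all genes. They were 2 in COLO-205 alone (6.16% of all genes), 2 in DU-145 alone (4.35%), 2 in OVCAR-3 alone (4.63%) and 0 in SKOV-3 alone (0.283%). Another 6 members were marked in none, against 25.0%. All of the last 6 were ligands: WNT2, WNT2B, WNT3A, WNT8A, WNT8B and WNT16. Every receptor was therefore marked in at least 1 line. All 15 receptors had a CpG ratio above 0.6, as did 22.4% of the genes marked in no line and 66.5% of all genes with a canonical start.

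Among these unmarked ligands, WNT3A, a typical activator of β-catenin, had its nearest peak 2011 bp from its start in COLO-205 and 30573 to 59069 bp away in the others. WNT2 had none within 80526 bp of a start in any line. WNT16 had none within 66679 bp. WNT2B, WNT8A and WNT8B had peaks as near as 9600, 6542 and 11970 bp. WNT2, WNT2B and WNT3A had CpG ratios of 0.816 to 0.856, and WNT8A, WNT8B and WNT16 of 0.125 to 0.481.

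WNT5A was the strongest of the promoters marked in 1 line. WNT5A is the best-known ligand of the branches that do not use β-catenin. In OVCAR-3 its peak at chr3:55520098-55522487 was 2390 bp wide, with a pileup of 111 tags (exact Poisson interval 91.3 to 134) against a local background of 6.22. The fold enrichment was 15.5 and the −log10 q 92.5, a value at or above that of 80.2% of the marked genes in OVCAR-3. The nearest peak lay 1018965 bp from a WNT5A start in COLO-205, 1066742 bp in DU-145 and 160509 bp in SKOV-3. OVCAR-3 also held 7 distal peaks at WNT5A, none shared with another line, and the other lines held 0. As many as 7 are held by 18.6% of all genes in OVCAR-3, and 28.6% of all distal peaks in OVCAR-3 were shared with another line. The window also holds the start of the antisense RNA WNT5A-AS1, which the mark does not tell apart from WNT5A.

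FZD10, a Frizzled receptor whose gene is a single coding exon, was marked in COLO-205 alone. Its peak at chr12:130645247-130647461 was 2215 bp wide and rested on 32 tags (21.9 to 45.2) over a background of 2.59, for a −log10 q of 21.0 and an enrichment of 9.20-fold. In the other lines the nearest peak was 662516 to 708903 bp away. The window also holds the start of the antisense RNA FZD10-AS1, which cannot be told apart from FZD10 either. The same limit holds for WNT4, WNT7B, FZD4, FZD6 and FZD7, whose windows hold starts of non-coding RNAs. WNT3 and WNT9B have starts within 1 kb of each other.

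The strongest peaks at the other 4 promoters of this kind were weak and narrow. FZD9 in DU-145 had 42 tags over a background of 10.4, a fold enrichment of 3.77, a −log10 q of 10.9 and a width of 250 bp. WNT10B in OVCAR-3 had 32 tags, a fold enrichment of 3.85, a −log10 q of 8.86 and a width of 415 bp. WNT1, the founding ligand of the family, had 22 tags in COLO-205, a fold enrichment of 3.90, a −log10 q of 6.22 and a width of 239 bp. WNT5B in DU-145 had 26 tags, a fold enrichment of 3.40, a −log10 q of 6.07 and a width of 252 bp. WNT1, WNT10B and WNT5B were not marked when a −log10 q of at least 10 was required, and FZD9 was. None of these 4 was marked when every list was held to 14001 peaks, while WNT5A and FZD10 were.

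Of the 11 members marked in exactly 2 lines, 4 were marked in DU-145 and SKOV-3: WNT7A, WNT7B, WNT9A and ROR1. Of all genes, 81 (0.402%) had this pattern. It joins the prostate line to 1 of the ovarian lines. WNT7A had a −log10 q of 10.9 in DU-145 and 17.3 in SKOV-3, and WNT7B, an epithelial ligand of lung and skin, 12.2 and 8.32. The SKOV-3 peak of WNT7A was 1797 bp wide, and its summit lay inside the gene, outside the 1 kb window. WNT9A had 14.9 and 5.83. ROR1, a receptor tyrosine kinase that binds WNT5A, had 12.6 and 7.86. The nearest peak to a WNT7A start was 21132 bp away in COLO-205 and 44449 bp in OVCAR-3, and for ROR1 111298 and 110876 bp. At equal peak numbers WNT7A, WNT7B, WNT9A and ROR1 were all still marked in SKOV-3 and no longer in DU-145.

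WNT6, WNT9B and WNT11 were marked in COLO-205 and OVCAR-3 only, as were 2.77% of all genes. WNT6 and WNT9B were weak in both, with a −log10 q of 4.03 to 6.68. WNT4, FZD1 and FZD4 were marked in DU-145 and OVCAR-3 only, as were 9.98% of genes. WNT4, a ligand of ovary and kidney development, had a −log10 q of 15.2 and 5.49 there, and FZD1 13.5 and 10.8. FZD4, a receptor needed for retinal vessels, had a −log10 q of 25.5 in DU-145 and 10.6 in OVCAR-3. FZD8 was the only member marked in both ovarian lines and no other, a pattern of 0.456% of genes. It had 60 tags, 7.81-fold enrichment and a −log10 q of 33.0 over 1322 bp in OVCAR-3, and 24 tags, 4.38 and 7.22 over 342 bp in SKOV-3. Together with FZD7, which was also marked in DU-145, it was marked in both ovarian lines and not in COLO-205.

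LRP6, the co-receptor that is phosphorylated when a WNT binds, had the highest −log10 q of the members. Its summit pileup was 98, 80, 249 and 43 tags. Divided by the estimated library size and scaled to 1000000 tags (the scaled pileup) this is 3.29, 2.22, 7.28 and 1.92, so OVCAR-3 stood 2.21 times above the next line. The fold enrichment in OVCAR-3 was 18.5 and the −log10 q 219, over 1311 bp. RYK, a receptor with an inactive kinase domain, had 51, 61, 220 and 37 tags, or 1.71, 1.69, 6.43 and 1.65 as scaled pileups. OVCAR-3 was 3.76 times above the next line there, with 22.5-fold enrichment and a −log10 q of 214 over 1660 bp. The intervals of OVCAR-3 did not overlap those of the other lines at LRP6 or RYK. Scaled pileups at all marked promoters in OVCAR-3 had a median of 2.46, above the 1.41 to 1.86 of the other lines.

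**Figure D3:**
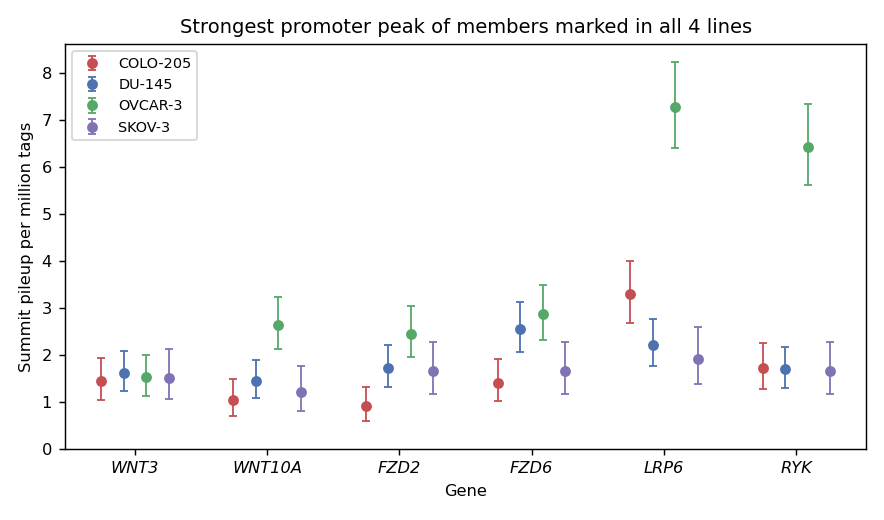
Tag pileup at the summit of the strongest promoter peak, scaled to 1000000 tags (vertical axis), for the 6 members marked in all 4 lines. Points are single libraries and bars exact 95% Poisson intervals of the pileup. OVCAR-3 stands apart at LRP6 (7.28) and RYK (6.43), while the 4 lines lie together at WNT3.

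FZD6 had 42, 92, 98 and 37 tags, with a −log10 q of 8.47, 31.6, 45.1 and 12.3. Its peak in OVCAR-3 was 946 bp wide, at 6.54-fold enrichment. FZD2 had 27, 62, 84 and 37 tags. Its highest fold enrichment was 11.6 in OVCAR-3, with a −log10 q of 59.7 over 1056 bp, and its lowest was 2.68 in COLO-205, with a −log10 q of 4.13. FZD2 in COLO-205 was lost at a −log10 q of at least 5. FZD7 had 53 tags in the prostate line and 86 and 36 in the ovarian lines, with a −log10 q of 13.8, 55.5 and 14.6 in the same order. Its strongest peak in OVCAR-3 was 663 bp wide, at 10.1-fold enrichment. FZD5, the Frizzled of Paneth cells in the gut, ran the other way, with 69 tags in the colon line, 58 in the prostate line and 44 in OVCAR-3. Its −log10 q was 33.6, 16.9 and 12.2. The value in COLO-205, over 525 bp and at 7.08-fold enrichment, was the highest of any Frizzled in that line. LRP5, the co-receptor best known for its role in bone, was likewise highest in COLO-205, with 75 tags against 56 and 51, and it was unmarked in SKOV-3. FZD3 and ROR2 were also marked in every line but SKOV-3. FZD3, a receptor that guides axons, had a −log10 q of 7.16 in the colon line, 19.8 in the prostate line and 32.2 in OVCAR-3. ROR2, a WNT5A receptor of cartilage and limb, had 10.1, 9.66 and 7.52, on 22 to 28 tags.

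The start that was marked differed between lines in some ligands. WNT10A in OVCAR-3 had a peak of 2622 bp over its canonical start, with 90 tags, 9.19-fold enrichment and a −log10 q of 54.4, and SKOV-3 had 27 tags there. In COLO-205 and DU-145 the peak lay within the gene, at an inner start of a non-coding transcript, with a −log10 q of 4.92 and 11.6. The canonical start of WNT10A was therefore marked in OVCAR-3 and SKOV-3 only. WNT3 was similar. Its scaled pileup was even, from 1.44 to 1.61 in the 4 lines, with the summits at inner starts of the gene. The canonical start of WNT3 was marked in COLO-205 alone. The annotated bodies of WNT3 and WNT9B lie 47 bp apart and shared 17 distal peaks in COLO-205, so such peaks cannot be assigned to either.

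WNT11, a ligand of cell movement in the gastrula, had a promoter peak of 4616 bp in OVCAR-3, the widest of all members, with 95 tags, 8.57-fold enrichment and a −log10 q of 54.4. In COLO-205 its peak was 364 bp wide with 33 tags and a −log10 q of 9.25, and lay at a start other than the canonical one. In DU-145 the nearest peak was 1803 bp away.

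In each line the median marked member was weaker than the median marked gene. The median scaled pileup over members was 1.07, 1.46, 1.61 and 1.41, against 1.41, 1.86, 2.46 and 1.74 over all marked genes. The median member had a −log10 q at or above that of 32.9%, 31.1%, 32.9% and 45.7% of the marked genes of its line. The highest-ranked members were LRP6 in OVCAR-3, at or above 98.2% of them, RYK in OVCAR-3 (98.0%) and LRP6 in COLO-205 (97.7%).

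Within 50 kb of the members there were 257, 122, 263 and 32 distal peaks. At least 1 was found at 26, 26, 23 and 6 members, where 73.6%, 63.4%, 59.2% and 21.8% of all genes had 1 or more. Per 100 kb of searched sequence, pooled over genes, members had 5.14, 2.42, 4.92 and 0.631 against 3.24, 3.16, 2.99 and 0.345 for all genes. The median member had 3.38, 1.89, 1.38 and 0 against 1.48, 0.980, 0.802 and 0 for the median gene, so in DU-145 the pooled value was below that of all genes and the median above it. These totals rest on few genes. RYK alone gave 129 of the peaks in OVCAR-3 and WNT11 59, and without RYK the OVCAR-3 total was 134. With the strongest 14001 peaks of each line the totals were 27, 10, 42 and 32. WNT2, WNT16 and FZD8 had 0 in any line, and FZD9 had 7, in DU-145 only. Distal peaks were assigned by distance only, and the nearest start of a coding gene belonged to a member for 206 of 257, 81 of 122, 153 of 263 and 32 of 32.

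**Figure D4:**
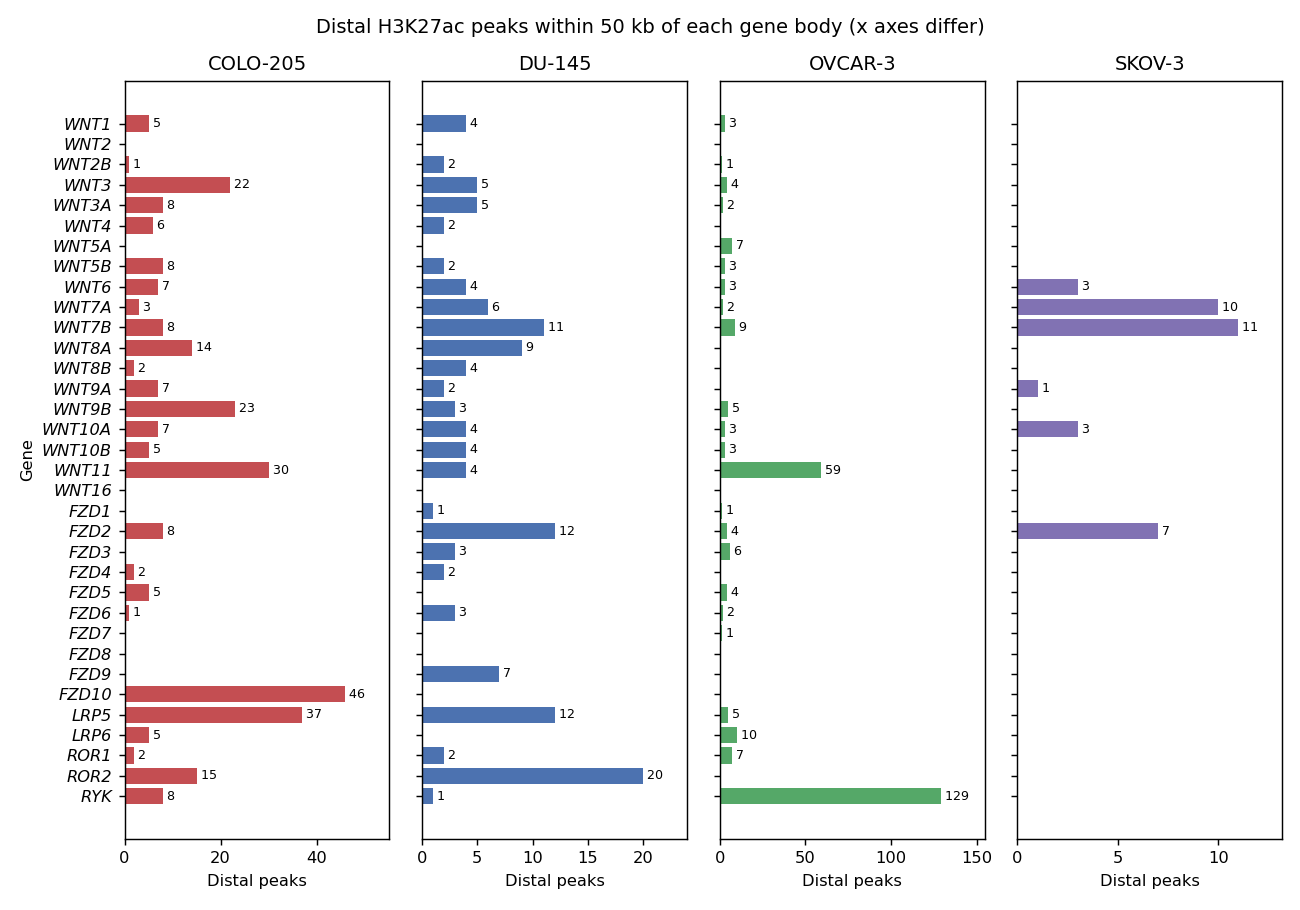
Number of distal H3K27ac peaks within 50 kb of the gene body (horizontal axis, scale differing between panels) for each member (vertical axis) in the 4 lines. RYK (129) and WNT11 (59) in OVCAR-3 and FZD10 (46) in COLO-205 have the longest bars. In SKOV-3 6 members have any, with WNT7B (11) and WNT7A (10) highest.

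For 4 members with high counts, the strongest distal peak is shown with the sequence around its summit, 300 bases each on the plus strand of GRCh37, with CpGs in capitals.
FZD10 (chr12:130618539-130618838, upstream of the gene, COLO-205): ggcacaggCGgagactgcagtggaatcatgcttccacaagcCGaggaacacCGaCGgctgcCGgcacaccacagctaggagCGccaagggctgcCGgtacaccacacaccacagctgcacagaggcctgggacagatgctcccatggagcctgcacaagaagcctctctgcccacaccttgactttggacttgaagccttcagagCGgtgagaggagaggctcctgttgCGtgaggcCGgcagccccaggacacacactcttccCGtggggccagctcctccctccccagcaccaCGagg
WNT11 (chr11:75947227-75947526, upstream of the gene, OVCAR-3): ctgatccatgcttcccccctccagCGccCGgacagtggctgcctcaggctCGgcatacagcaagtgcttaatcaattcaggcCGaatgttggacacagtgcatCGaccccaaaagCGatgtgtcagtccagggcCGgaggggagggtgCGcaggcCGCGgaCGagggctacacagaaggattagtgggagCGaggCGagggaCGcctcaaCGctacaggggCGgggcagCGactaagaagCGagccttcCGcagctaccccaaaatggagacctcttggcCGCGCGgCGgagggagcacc
WNT7A (chr3:13869158-13869457, intron, SKOV-3): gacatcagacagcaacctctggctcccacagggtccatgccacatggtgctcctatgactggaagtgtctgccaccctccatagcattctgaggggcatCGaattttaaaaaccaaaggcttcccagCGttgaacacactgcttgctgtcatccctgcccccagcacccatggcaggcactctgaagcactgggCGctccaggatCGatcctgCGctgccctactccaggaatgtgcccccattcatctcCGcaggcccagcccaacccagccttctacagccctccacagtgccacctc
WNT7B (chr22:46322167-46322466, intron, SKOV-3): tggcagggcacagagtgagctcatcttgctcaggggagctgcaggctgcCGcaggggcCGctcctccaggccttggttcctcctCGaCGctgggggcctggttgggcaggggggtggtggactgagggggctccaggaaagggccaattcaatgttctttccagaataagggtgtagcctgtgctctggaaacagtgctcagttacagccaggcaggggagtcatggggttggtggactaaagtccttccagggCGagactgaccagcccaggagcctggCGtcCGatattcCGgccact

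The FZD10 locus in COLO-205 had 46 distal peaks, 28 upstream of the gene, 16 downstream and 2 within it. As many were found at 1.19% of all genes in that line. The density was 44.5 per 100 kb inside the searched window and 14.2 in the 1 Mb on either side. For all 46, FZD10 was the gene with the nearest start, and none overlapped a peak in another line, where 15.9% of all distal peaks of COLO-205 did. Their median fold enrichment was 5.83, where all distal peaks of COLO-205 had 4.83, and the strongest, shown above, reached a −log10 q of 38.2. DU-145, OVCAR-3 and SKOV-3 had 0 distal peaks there. LRP5 followed with 37 in COLO-205, 34 of them within the gene, and then WNT11 with 30, each of which overlapped a peak of OVCAR-3, where peaks covered most of that window.

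The RYK locus in OVCAR-3 had 129 distal peaks, a count reached by 0.109% of all genes. Of these, 74 lay within the gene, which spans most of the window. The density was 45.2 per 100 kb, against 17.8 in the flanking 1 Mb. RYK was the gene with the nearest start for 67 of the 129, and SLCO2A1 for the rest. A peak in another line overlapped 9 of the 129, where 28.6% of all distal peaks of OVCAR-3 were shared, and COLO-205 had 8 distal peaks there, DU-145 1 and SKOV-3 0. WNT11 in OVCAR-3 had 59, at 47.4 per 100 kb, but its flanks were almost as dense, at 41.2. Peaks covered 75.2% of the WNT11 window, and their median width was 852 bp, where all distal peaks of OVCAR-3 had 286 bp. Their median pileup was 56.0 tags against 24.0. The dense stretch thus reached beyond WNT11. Copy number was not measured here, and its part in these counts was not tested. LRP6 came next in OVCAR-3, with 10.

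The WNT11 stretch shown above held 23 CpGs, more than the 12, 6 and 8 of the FZD10, WNT7A and WNT7B stretches. The same element was called in DU-145, where its summit lay 133 bp from that of OVCAR-3, with 85 tags and a −log10 q of 29.2 against 180 tags and 140. WNT11 itself was not marked in DU-145.

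**Figure D5:**
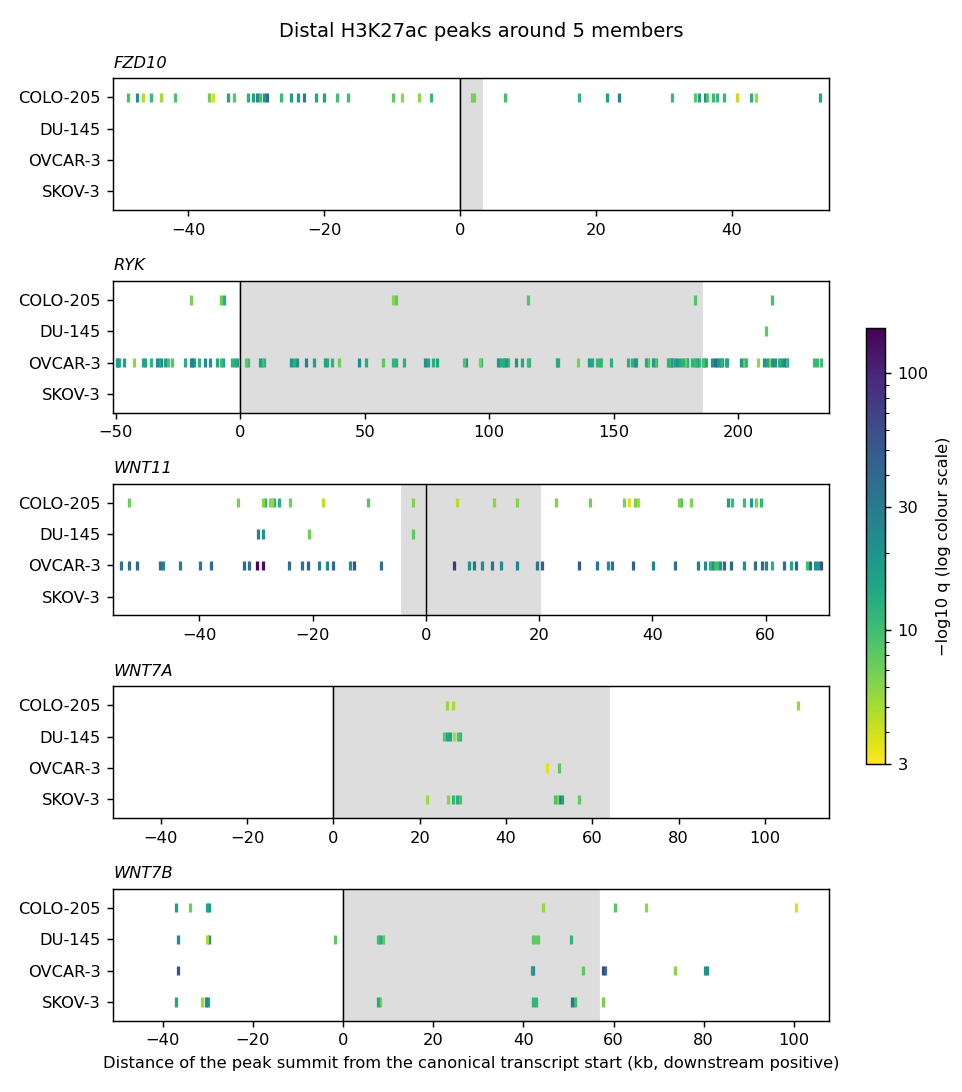
Distal peaks around FZD10, RYK, WNT11, WNT7A and WNT7B in the 4 lines (rows in each panel). The horizontal axis is the distance of the summit from the canonical start in kb, with downstream positive, grey shading is the gene body, and colour is the −log10 q on a logarithmic scale. The FZD10 panel is empty except for the 46 peaks of COLO-205, and the RYK panel is filled in OVCAR-3.

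In SKOV-3, whose list was shortest, WNT7B had 11 distal peaks, WNT7A 10 and FZD2 7. As many were found at 0.655%, 0.798% and 1.62% of all genes in that line. WNT7A, WNT7B and FZD2 made up most of the 32. The WNT7A peaks all lay inside the gene, and 4 of 10 overlapped a DU-145 peak, against 2 in COLO-205 and 1 in OVCAR-3. At WNT7B 8 of 11 overlapped a DU-145 peak, 4 an OVCAR-3 peak and 3 a COLO-205 peak, and at FZD2 5 of 7 overlapped DU-145. Over all members 68.8% of SKOV-3 distal peaks were found in another line, as were 66% of all its distal peaks. In DU-145 the most distal peaks were at ROR2, with 20, 15 of them inside that long gene, and then at FZD2 and LRP5 with 12 each. WNT7B had 11 in DU-145 and 9 in OVCAR-3, where its promoter was not marked.

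Each distal peak was searched in the 300 bases around its summit, on both strands, for TGANTCA, the site of AP-1, for CTTTGAA or CTTTGAT, a site of TCF/LEF, and for CAGGTG, an E-box bound by ZEB1. AP-1 matches were found in 6.61%, 6.56%, 6.46% and 12.5% of member peaks, against 4.93%, 7.83%, 7.24% and 6.97% of all distal peaks. TCF/LEF matches were in 3.11%, 4.10%, 7.22% and 12.5%, against 3.58%, 4.61%, 4.40% and 5.07%. The E-box was in 46.3%, 41.8%, 42.2% and 15.6%, against 43.8%, 46.7%, 45.8% and 40.3%. In SKOV-3 the E-box share rested on 5 of 32 peaks (15.6%, 5.28 to 32.8). The AP-1 and TCF/LEF shares there rested on 4 of 32 each (12.5%, 3.51 to 29.0), and most of the AP-1 matches lay at FZD2. For OVCAR-3 the TCF/LEF share had an interval of 4.41 to 11.1, and 19 of 263 peaks held a match. Most of these 19 lay at RYK, and most of the rest at WNT11, so the share rests largely on these dense loci. With 200 bases in place of 300, AP-1 and TCF/LEF matches were each in 1 of 32 SKOV-3 peaks (3.12%), against 3.59% and 2.88% of all its distal peaks. The E-box share in COLO-205 was then below that of all distal peaks, at 31.5% against 33.3%, and the AP-1 shares in DU-145 (5.74% against 4.52%) and OVCAR-3 (4.94% against 4.21%) and the TCF/LEF share in DU-145 (3.28% against 2.69%) were above. Neighbouring peaks of 1 locus are not independent, and a match is only these letters in a window.
A SKOV-3 peak upstream of FZD2, chosen after its matches were seen, held all the motifs, each outside the central 200 bases. Peaks of COLO-205 and DU-145 with summits close by also held all the motifs. The SKOV-3 stretch is shown with the motifs in capitals, from the plus strand.
FZD2 (chr17:42619378-42619677, SKOV-3): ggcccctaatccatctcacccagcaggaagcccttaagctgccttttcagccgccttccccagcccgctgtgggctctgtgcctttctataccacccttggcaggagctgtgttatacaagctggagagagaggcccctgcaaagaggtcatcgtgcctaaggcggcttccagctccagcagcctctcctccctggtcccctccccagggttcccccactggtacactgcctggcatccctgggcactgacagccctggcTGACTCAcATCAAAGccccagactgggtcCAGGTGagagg

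The other genes of the pathway, 41 in all, were marked at 25 (61.0%), 19 (46.3%), 24 (58.5%) and 14 (34.1%), against 51.1%, 59.8%, 60.5% and 31.6% of all genes. No group had a higher share than the cytoplasmic components, of which 8, 9, 9 and 6 of 9 were marked. They include the Dishevelled proteins and the parts of the complex that degrades β-catenin. Of 7 nuclear components 6, 5, 7 and 4 were marked, and TCF7L1 in OVCAR-3 only, with a −log10 q of 10.1. Few secreted antagonists and related genes were marked, 4, 2, 3 and 1 of 13, and of the 4 R-spondins 3, 1, 0 and 0.

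Among genes needed to make active ligand, WLS, the carrier of WNTs to the cell surface, was marked in OVCAR-3 only (−log10 q 17.4), and PORCN, the enzyme that attaches the lipid, in SKOV-3 only (7.41). RSPO1 (5.60) and RSPO2 (9.24), secreted enhancers of WNT signalling, were marked in COLO-205 only, as were the antagonists SFRP2 (6.90) and FRZB (5.68). DKK1, which blocks LRP5 and LRP6, was marked in DU-145 only, by a peak of 1949 bp with 75 tags and a −log10 q of 32.3. KREMEN2 (5.88) was marked in DU-145 only and DKK4 (9.61) in OVCAR-3 only. RSPO3, LGR5, RNF43, DKK2, SFRP1, SFRP4, SFRP5, WIF1 and SOST were marked in no line. LGR5, the stem cell receptor of the colon crypt, was thus unmarked in COLO-205, where LGR4 and LGR6 were marked.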

How the data were processed

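H3K27ac ChIP-seq was analysed from the narrow peak lists of 4 cell lines, 1 library each. Per the study's methods and the submitters' processing notes, reads were mapped to hg19 (GRCh37) with Bowtie2 2.1.0, and peaks were called per library with MACS2 2.1.0.20150603 at a q-value of 0.001. The deposited lists give each peak a score (10 times its −log10 q), a ratio of summit to local background (fold enrichment), and a −log10 p and −log10 q, all made by the authors' peak caller for each library alone. The methods merge peaks under 350 bp apart, and the deposited lists are unmerged.

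Genes, starts and sequence came from GENCODE 44 lifted to GRCh37 and that assembly, and 0 peaks ran past a chromosome end. An overlap of 1 bp sufficed. Pileup and background at a summit were solved as the whole number of tags whose Poisson p matched within 0.001 on the −log10 scale, which succeeded for 100% of peaks. Library size was estimated by taking the lowest background as the genome-wide rate, the narrowest peak as the fragment length and 2700000000 positions. The solving of pileups and the marking of promoters were tested on simulated data, and the estimate of library size was not. Intervals are exact (Clopper-Pearson or Poisson, 95%). No test between lines was possible. Scripts ran in Python 3.11.15 with pandas 2.3.3, scipy 1.17.1, numpy 2.4.6 and matplotlib 3.10.9.

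All 34 members are named. Pileup, fold enrichment, −log10 q and width in the strongest line are given for those marked in 1 line, for the 8 strongest of the others by −log10 q and for any marked only in the ovarian lines. Distal counts are given for the 3 members with the most in each line, and other pathway genes are named if marked in 1 line or none. The members and lists were chosen with earlier results of these data known. The other lines and data types of the study were not analysed here. Some marker genes and 1 promoter sequence are not reported here.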

Additional observations from a re-analysis of the deposited data

How the results depend on the processing

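Of 170 values recomputed for the main counts and shares, 135 stayed within 1.5 times the reported count, or within the interval of a reported share or pileup, and 35 moved. Requiring a −log10 q of at least 10 left 7 members marked in COLO-205 (20.6%, against 31.7% of all genes) and 7 in SKOV-3 (20.6%, against 22.2%), 3 in all 4 lines and 11 in no line, 14 other pathway genes in COLO-205, and 66 distal peaks in COLO-205, 25 in DU-145 and 17 in SKOV-3. Holding every list to its strongest 14001 peaks left 6, 8 and 10 members marked in COLO-205, DU-145 and OVCAR-3, 2 in all 4 lines and 15 in none, 13 and 14 other pathway genes in COLO-205 and OVCAR-3, and 27, 10 and 42 distal peaks in the 3 longer lists. A reach of 20 kb gave 163, 80 and 172 distal peaks in those lists, and a reach of 100 kb gave 61 in SKOV-3, 216 in DU-145 and 430 in OVCAR-3. Counting only peaks nearest to a member's start gave 81 in DU-145 and 153 in OVCAR-3. Among alternatives chosen after seeing the data, leaving out SKOV-3 put 10 members in all remaining lines, leaving out RYK gave 134 distal peaks in OVCAR-3 and leaving out WNT7B gave 21 in SKOV-3. A motif window of 200 bp gave AP-1 shares of 3.11% in COLO-205 and 3.12% in SKOV-3, a TCF/LEF share of 3.12% in SKOV-3, and E-box shares of 31.5%, 27% and 34.2% in COLO-205, DU-145 and OVCAR-3, where the narrower window holds fewer bases. Of 88 recomputed shares of members, other pathway genes and motif matches, 10 lay on the other side of the share over all genes or peaks: 5 of motif matches at 200 bp, and those of members in DU-145 (52.9% against 51.1%) and SKOV-3 at a −log10 q of at least 10, in OVCAR-3 with coding starts only (58.8% against 58.4%), and in DU-145 with 500 bp (58.8% against 58.6%) or 2500 bp (64.7% against 61.7%) either side of a start. The ligand share was below and the receptor share above that of all genes in 40 of 40 recomputed values each, a comparison added after seeing the data.

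WNT2, WNT2B, WNT8A, WNT8B, WNT16, FZD10, LRP6 and RYK kept their lines under all 9 other promoter settings listed at the outset, and WNT5A lost its mark only with the outermost start alone. No paired analysis was possible because each line has 1 library and the labels give no replicate numbers, and for the same reason leaving out a replicate was not run. An unmarked promoter was not detected at the depth and threshold of its list, which is no proof of absence, and the list of SKOV-3 is the most limited. Acetylation was measured, not transcription.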
